A study of Mus musculus with 38 samples.

Results

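B1 elements are short interspersed elements (SINEs) of the mouse genome, and the copies described here are those that the deposited tables assign to class SINE and family Alu. They numbered 557926 of 3793386 copies of transposable elements (14.7%) and fell into 15 of 1241 families, which are called subfamilies here. By name they form 4 groups. The young group holds B1_Mm (42468 copies), B1_Mus1 (96303) and B1_Mus2 (69961), the middle group B1_Mur1 to B1_Mur4 (28295 to 40814 copies each), and a further group B1F, B1F1 and B1F2 (18105 to 42794). The old group holds PB1, PB1D7, PB1D9, PB1D10 and PB1D11 (11756 to 61973). B1 elements arose, like the human Alu elements, from the RNA of the signal recognition particle, are transcribed by RNA polymerase III from a promoter within the element, and are copied into new places with the help of proteins made by LINE-1 (L1) elements. They are known to lie mostly in gene-rich chromatin of the nuclear interior, whereas L1 elements are frequent in lamina-associated domains, the stretches of chromatin that touch the nuclear lamina. The order of age of the subfamilies, from PB1 to B1_Mm, is background knowledge and was not derived from these data.

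DNA near proteins of the nuclear envelope was mapped by CUT&RUN, in which a nuclease held by an antibody releases nearby DNA, in naive mouse embryonic stem cells (naive mESCs) and in epiblast-like cells (EpiLCs) made from them over 48 h with FGF and activin A. One antibody bound LAP2B, which sits in the inner nuclear membrane, one bound the lamin LMNB1, and an unspecific immunoglobulin (IGG) gave the background. LAP2B was mapped at both stages in wild type cells (WT), in cells without the lamin B receptor (LBRKO), in cells without the 3 lamin genes Lmna, Lmnb1 and Lmnb2 (TKO), and in cells that lack these lamins and carry mutated Lbr as well (QKO). Libraries of LMNB1 and IGG are of WT cells alone, and each of the 12 groups held 3 libraries. WT and TKO are separate lines from littermates, LBRKO was made from WT, and QKO is 1 surviving clone made from TKO in which, per the study, 1 Lbr allele has a frameshift and the other an in-frame deletion. The study reports that immunostaining with several antibodies detected no LBR in LBRKO and QKO cells, and that western blots checked LBR depletion. Per the study's karyotypes, TKO cells carried an extra chromosome 8, some without the Y chromosome, and part of the WT cells had lost the Y chromosome or gained chromosomes 6 and 8. The labels do not say that replicates came from separate cultures, so p-values measure the spread between these libraries, which may be technical. Per the study, LAP2B signal in WT EpiLCs also lay outside lamina-associated domains and was not used there to mark them, so the LAP2B values of EpiLCs, and the stage differences that use them, are given as signal and not as contact with the lamina. In bulk libraries a change in a share of the cells and a change in every cell cannot be told apart.

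Each value is the spike-in scaled RPKM signal summed over the 1 kb bins that a copy touches. Summed over B1 copies, recovered reads numbered 4975185 to 18197731 per library, where the reads of a bin count again for each B1 copy in it. The median was 8 to 29 reads per copy, and 0.100% to 3.67% of B1 copies had none. Because a bin is longer than a B1 element, 30.4% of B1 copies shared all their bins with another B1 copy, and of 464830 distinct sets of B1 values 62.2% were shared with a copy of another family. A value therefore describes the bin around a B1 copy rather than the element alone. Values are given on the spike-in scale, as deposited, and on the relative scale, divided by the median family of the library, where differences in total level drop out.

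The sequences of 4 B1 copies are shown to let the subfamilies be compared by eye. Each is the copy of its subfamily whose bin could be placed and whose B1 stretch aligned to most other placed B1 bins, from subfamilies with a median of over 400 such alignments. They are read from the reference genome GRCm39, 5′ to 3′ along the strand on which the element ends in A. Capitals mark AGGCCAGCCT, the word of 10 letters held by more placed B1 bins than any other, which all 4 copies hold.
B1_Mm (B1_Mm_dup11972, chr5:106220033-106220182, minus strand): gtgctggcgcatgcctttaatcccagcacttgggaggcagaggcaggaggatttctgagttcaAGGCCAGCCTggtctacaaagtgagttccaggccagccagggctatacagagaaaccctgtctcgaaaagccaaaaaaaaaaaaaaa
B1_Mus1 (B1_Mus1_dup69620, chr12:11349612-11349758, plus strand): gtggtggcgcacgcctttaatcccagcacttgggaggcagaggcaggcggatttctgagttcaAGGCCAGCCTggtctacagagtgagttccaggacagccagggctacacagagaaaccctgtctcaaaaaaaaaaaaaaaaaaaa
B1_Mur2 (B1_Mur2_dup28223, chr19:42263144-42263286, minus strand): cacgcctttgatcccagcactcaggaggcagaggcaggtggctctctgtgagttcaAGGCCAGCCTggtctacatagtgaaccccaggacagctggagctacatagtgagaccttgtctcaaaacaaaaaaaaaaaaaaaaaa
B1_Mur4 (B1_Mur4_dup665, chr1:82788840-82788975, plus strand): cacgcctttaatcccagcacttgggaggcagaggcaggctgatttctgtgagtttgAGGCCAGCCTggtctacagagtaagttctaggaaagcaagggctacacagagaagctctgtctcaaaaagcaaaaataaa

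Over aligned bases, the B1_Mus1 copy was 95.2% identical to the B1_Mm copy, and the B1_Mur2 and B1_Mur4 copies 85.5% and 88.1%. In GENCODE M39 the B1_Mus1 copy lies in an intron of Smc6, a subunit of a chromosome maintenance complex, and the B1_Mur2 copy in an intron of Crtac1. The B1_Mm and B1_Mur4 copies lie in introns of the long non-coding RNA genes Gm32736 and Gm34286. The shared word, searched on both strands, was in 34.6% of 1160 placed B1 bins. It was in 2.39% of 3342 placed bins of the same length to which no B1 copy was matched, which may still hold part of one. It was picked on these B1 bins, so the shares are a description. It was most frequent in the young subfamilies (60.2% of B1_Mm, 61.0% of B1_Mus1 and 61.8% of B1_Mus2 bins), and found in 3.08% of PB1D9 and 5% of PB1 bins. Copies could be placed where they shared a bin with a gene that lies within it, so they are not a random sample of B1 copies.

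A single copy rests on few reads. In naive LAP2B libraries the B1_Mur2 copy shown above had 14, 5 and 1 reads for WT, 30, 2 and 12 for LBRKO, 17, 4 and 6 for TKO and 14, 9 and 19 for QKO, so the groups overlapped in reads. On the relative scale it was the only one of these 4 copies that passed the test in naive QKO, higher by 1.33 (log2, SE 0.523; adjusted p = 0.0361, limma with Benjamini-Hochberg adjustment over all copies tested), and none of the 4 passed in naive LBRKO or TKO or in EpiLCs. The B1_Mm copy had 20, 20 and 27 reads for WT and 10, 28 and 12 for QKO, a difference of -0.45 (log2, SE 0.405; adjusted p = 0.375, limma). The sections that follow therefore rest on means over many copies.

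LAP2B signal over B1 elements, taken against the other families of the same library, was lowest in WT and highest in QKO at the naive stage. The relative level, as log2 of the mean B1 copy over the median family, was -0.31, -0.39 and -0.25 in the 3 naive WT libraries. It was 0.19, 0.19 and 0.25 for LBRKO and 0.11, 0.09 and 0.09 for TKO. It was 0.77, 0.56 and 0.70 for QKO, so that every mutant library lay above every WT library and the 4 groups did not overlap. The difference from WT was 0.53 for LBRKO (pooled SD 0.057), 0.42 for TKO (0.051) and 1.00 for QKO (0.092), with n = 3 per group. The level differed among the 4 genotypes (exact permutation test of the F statistic, p = 6.5e-05, the smallest that the 15400 partitions can give), and each mutant against WT gave p = 0.1 (exact permutation test, two-sided), the smallest that 3 against 3 libraries can give. Without the B1 copies that were unplaced or on chromosomes 6, 8, X and Y, the differences were 0.51, 0.42 and 1.04. This alternative was added after seeing the data, and its divisor, the median family, was still taken over all chromosomes. With libraries divided by their median copy the difference of TKO was 0.27.

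On the spike-in scale, which keeps the total level of each library, the order was another. The mean B1 copy, as log2 of the deposited signal, was -1.07, -0.51 and -0.89 for naive WT, -0.67, -0.52 and -0.23 for LBRKO, -1.85, -1.16 and -1.66 for TKO and -1.65, -2.05 and -1.75 for QKO. TKO and QKO libraries lay below all WT libraries, while LBRKO and WT overlapped. The difference from WT was 0.36 for LBRKO, -0.73 for TKO and -0.99 for QKO (exact permutation tests, two-sided, p = 0.3, 0.1 and 0.1; among the 4 genotypes p = 0.00188). On this scale the median family by which each library is divided differed from WT by -0.18 for LBRKO, -1.15 for TKO and -1.99 for QKO. B1 elements thus lost less LAP2B signal than the median family in TKO and QKO, which is the same measurement as their higher relative level.

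**Figure D1:**
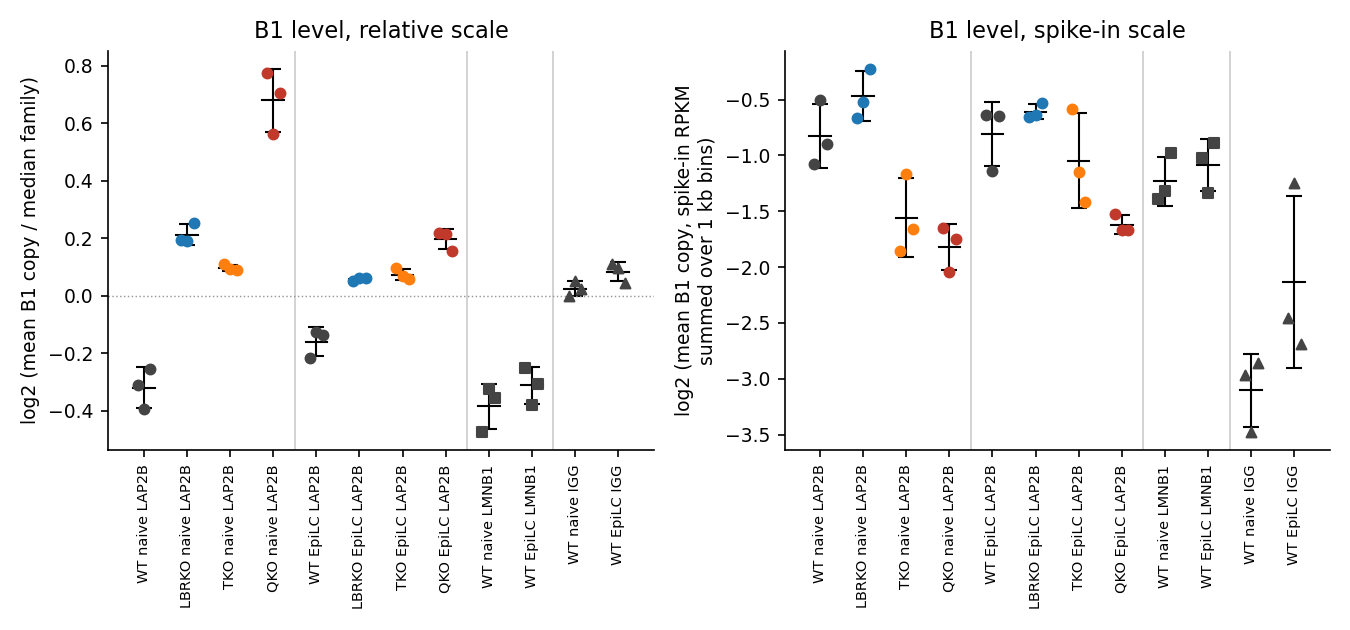
Mean LAP2B, LMNB1 or IGG signal over all B1 copies in each library (points), on the relative scale (left, log2 of the mean B1 copy over the median family of the library) and on the spike-in scale (right, log2 of the deposited signal), with the mean and SD of 3 libraries per group as bars. On the left all mutant LAP2B libraries lie above the WT libraries of their stage, and on the right naive TKO and QKO lie below naive WT.

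In EpiLCs WT was again lowest and QKO highest, with smaller differences. The relative level was -0.22, -0.13 and -0.14 for WT, 0.05, 0.06 and 0.06 for LBRKO, 0.10, 0.07 and 0.06 for TKO and 0.22, 0.21 and 0.16 for QKO. WT lay below all mutants and QKO above all other groups, while LBRKO and TKO overlapped. The difference from WT was 0.22 for LBRKO, 0.23 for TKO and 0.36 for QKO, and the level differed among the 4 genotypes (exact permutation test, p = 0.000195). On the spike-in scale the differences were 0.20, -0.24 and -0.81 (exact permutation tests, two-sided, p = 0.5, 0.6 and 0.1; among the 4 genotypes p = 0.0119), and the median family differed by -0.02, -0.47 and -1.16. The effect of each mutant on the relative level was smaller in EpiLCs than in naive mESCs by 0.31 for LBRKO (p = 0.005), 0.18 for TKO (p = 0.015) and 0.64 for QKO (p = 0.005; exact permutation of the stage labels of the mutant and of WT, smallest p 0.005). The stage difference of TKO did not pass with libraries divided by their median copy (-0.05, p = 0.425) or mean copy (-0.11, p = 0.095), nor without the B1 copies of chromosomes 6, 8, X and Y (-0.17, p = 0.05; exact permutation tests). Against neighbouring copies, as described below, neither LBRKO (-0.02, p = 0.055) nor TKO (-0.01, p = 0.14; exact permutation tests) passed. On the spike-in scale the stage differences were -0.16, 0.49 and 0.18 (exact permutation tests, p = 0.545, 0.265 and 0.51). In WT itself the relative level was higher by 0.16 in EpiLCs than in naive mESCs (pooled SD 0.061; exact permutation test, p = 0.1, the smallest possible), and by 0.02 with libraries divided by their median copy (p = 0.8).

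LMNB1 and IGG values come from tables of their own and are set beside the LAP2B values without a test. The relative B1 level of LMNB1 was -0.47, -0.32 and -0.35 in naive mESCs and -0.25, -0.38 and -0.31 in EpiLCs, below 0 in all 6 libraries like the WT LAP2B level. For IGG it was -0.002, 0.05 and 0.03 in naive mESCs and 0.11, 0.10 and 0.05 in EpiLCs. In naive mESCs IGG lay above all WT and below all mutant libraries of LAP2B. In EpiLCs it lay above all WT and below all QKO libraries of LAP2B, and its range held all LBRKO and TKO libraries. On the spike-in scale the mean IGG level was -3.10 in naive mESCs and -2.13 in EpiLCs, beside -1.82 and -1.62 for QKO LAP2B. The highest EpiLC IGG library (-1.25) lay above all QKO EpiLC libraries of LAP2B (-1.67 to -1.52). The study does not name the constant used to scale IGG by its spike-in, so these levels may not be on 1 scale. On the relative scale the stages differed by 0.07 for LMNB1 (exact permutation test, p = 0.4) and by 0.06 for IGG (p = 0.2). With medians over copies the difference for LMNB1 was 0.16 (exact permutation test, p = 0.1, the smallest possible), and with libraries divided by their median copy that for IGG was 0.09 (p = 0.2). No B1 subfamily passed the limma test between stages in either table on either scale. Of the 15, 1 had an unadjusted p under 0.05 for LMNB1 and 1 for IGG on the relative scale and 0 on the spike-in scale, and edgeR on recovered reads also called 0. Among all families 0.886% were called for LMNB1 and 0.161% for IGG on the relative scale, and 0.322% and 0% on the spike-in scale.

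B1 elements were compared with B2 (369746 copies) and B4 (380386), the other abundant SINE families of the mouse, which lie in similar chromatin. The log2 ratio of the mean B1 to the mean B2 copy was 0.0015, -0.0150 and 0.0048 for naive WT, 0.05, 0.07 and 0.07 for LBRKO, 0.08, 0.08 and 0.07 for TKO and 0.17, 0.12 and 0.17 for QKO. All mutant libraries lay above all WT libraries, and the ratio differed among the 4 genotypes (exact permutation test, p = 6.5e-05). With medians over copies the differences from WT were 0.18, 0.17 and 0.21 in place of 0.07, 0.08 and 0.15, the highest WT value equalled the lowest of TKO, and p was 0.0236 (exact permutation test). With copies of the same bin counted once the differences were 0.04, 0.06 and 0.11. Both groups moved in the same direction, since the relative B2 level differed from WT by 0.47, 0.34 and 0.84 for LBRKO, TKO and QKO against 0.53, 0.42 and 1.00 for B1. The ratio to B4 differed from WT by 0.13 for LBRKO, 0.14 for TKO and 0.30 for QKO (exact permutation test among the 4 genotypes, p = 0.000325), and with medians over copies by 0.29, 0.27 and 0.41. Ratios within a library do not depend on its scaling. For comparison, the relative level of L1 elements differed from WT by -0.40, -0.13 and -0.48 in the same libraries, and that of MIR, an older SINE family, by 0.26, 0.17 and 0.48.

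In EpiLCs the ratio of B1 to B4 also differed among the genotypes (exact permutation test, p = 0.00039), by 0.06 for LBRKO, 0.05 for TKO and 0.09 for QKO. The ratio of B1 to B2 did not pass the test there (0.03, 0.02 and 0.04; exact permutation test, p = 0.0777), and it passed without WT replicate 3 (p = 0.0439), without TKO replicate 1 (p = 0.0432) or without QKO replicate 3 (p = 0.0418). The difference for TKO was 0.07 with medians over copies (exact permutation test among the 4 genotypes, p = 0.223). The effects on the ratio to B4 were smaller in EpiLCs than in naive mESCs by 0.07, 0.09 and 0.21 (exact permutation of stage labels, p = 0.005 for each, the smallest possible). Those on the ratio to B2 differed between stages by -0.03, -0.06 and -0.11 (exact permutation tests, p = 0.205, 0.105 and 0.09). From naive mESCs to EpiLCs the ratio to B2 fell in WT (-0.003 to -0.017) and in all mutants (QKO 0.15 to 0.02). The test cannot reach 0.005 where a mutant and WT shift the same way. For the ratio to B4 WT rose and the mutants fell, so the p-values of the 2 ratios are not comparable.

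All 15 subfamilies rose on the relative scale in naive LBRKO, TKO and QKO, where 30.5%, 32.6% and 37.8% of all 1241 families were called higher (limma, Benjamini-Hochberg adjustment over all families). The median log2 change of the 15 was 0.49, 0.39 and 0.91, beside -0.03, 0.02 and -0.02 over all families. PB1D9 had the largest change in each of the 3 mutants, 0.63 for LBRKO, 0.49 for TKO and 1.17 for QKO (SE 0.047). Its relative mean was 0.75, 0.69 and 0.79 for WT and 1.95, 1.63 and 1.83 for QKO. B1_Mm, the youngest subfamily, had the smallest change in LBRKO (0.35) and TKO (0.31, SE 0.035), and a change of 0.78 in QKO. Its relative mean was 0.83, 0.80 and 0.86 for WT, 1.08, 1.06 and 1.11 for LBRKO, 1.06, 1.03 and 1.05 for TKO and 1.59, 1.38 and 1.51 for QKO, with no overlap of WT and mutants.

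PB1, the oldest subfamily by name, had the smallest change in naive QKO (0.75, SE 0.050; adjusted p = 1.30e-10, limma) and changed by 0.38 for LBRKO and 0.39 for TKO. Its relative mean was 1.01, 0.95 and 1.11 for WT and 1.85, 1.69 and 1.83 for QKO. A single PB1 copy, above 20 times the median copy, held 23.3% of the PB1 signal in naive WT LAP2B, and 11 such copies held 8.91% of the B1_Mus1 signal, against at most 0.7% in the other subfamilies. In the naive IGG background 1 such copy held 28.5% of the PB1 signal, and 15 held 7.93% of the B1_Mus1 signal. Over copies rather than family means, the median PB1 copy changed by 0.72 for QKO, between B1_Mm (0.61) and PB1D9 (1.09).

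QKO was set against TKO, the line it was made from. All 15 subfamilies were higher in naive QKO than in naive TKO on the relative scale (30.1% of families called higher), from 0.36 for PB1 to 0.68 for PB1D9. With the spike-in none of the 15 passed the test (0 at an unadjusted p under 0.05 by limma and 1 called lower by edgeR, and 7 called lower by limma on medians over copies), while 94.5% of all families were called, all of them lower. In EpiLCs none of the 15 and none of the 1241 families (0%) passed between QKO and TKO on the relative scale, by limma or by edgeR, although 13 of the 15 had an unadjusted p under 0.05, and on the spike-in scale all 15 fell, as did 98.8% of families. The number of the 15 called lower became 0 without TKO replicate 1, 7 without QKO replicate 2 and 6 without QKO replicate 3 of the EpiLCs.

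In EpiLCs the number of subfamilies called higher on the relative scale was 14 for LBRKO, 15 for TKO and 15 for QKO, where 18.3%, 14.0% and 21.1% of all families were called higher. The exception was PB1 in LBRKO (0.09, SE 0.050; adjusted p = 0.171, limma), which passed with family values as medians over copies (0.23; adjusted p = 0.00579). The single PB1 copy above 20 times the median copy held 29.3% of the PB1 signal in WT EpiLCs and 20.6% in LBRKO EpiLCs, and 1 such copy held 34.7% in IGG of WT EpiLCs. In TKO 0 subfamilies were called with medians over copies, where B1_Mm (0.17; adjusted p = 0.101) and PB1 (0.15; 0.118, limma) still lay above 0. PB1D9 again had the largest changes (0.26, 0.27 and 0.43), and the smallest by these means were those of PB1 in LBRKO, B1_Mm in TKO (0.14) and PB1 in QKO (0.21). With libraries divided by their median copy the calls of B1_Mm in LBRKO (0.15; adjusted p = 0.0588) and TKO (0.13; 0.142) and of PB1 in TKO (0.18; 0.0697) and QKO (0.15; 0.0642, limma) were lost. In WT, 14 subfamilies were higher in EpiLCs than in naive mESCs (14.2% of families), with the largest difference in PB1 (0.24; with medians over copies 0.19, adjusted p = 0.0696, limma) and the smallest in B1_Mm (0.08, SE 0.035; adjusted p = 0.119, limma). That count rested on single libraries: it was 1 without naive WT replicate 2 or without EpiLC WT replicate 2, and 9 without EpiLC WT replicate 3. It was 2 with medians over copies and 0 with libraries divided by their median copy. With the spike-in 0 of the 15 (0 at an unadjusted p under 0.05, and 0 by edgeR) and 0.161% of all families differed between the stages of WT.

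With the spike-in 0 subfamilies passed in naive LBRKO (9.91% of all families were called; 3 of the 15 had an unadjusted p under 0.05; edgeR on recovered reads called 0), and 15 fell in naive TKO and 15 in naive QKO, where 99.2% and 99.7% of all families were called lower. B1_Mm fell by 0.72 for TKO and by 1.01 for QKO (SE 0.209), PB1 by 0.66 and 1.07 (SE 0.213) and PB1D9 by 0.54 and 0.63 (SE 0.210). In EpiLCs 0 passed in LBRKO or TKO (0 at an unadjusted p under 0.05, and 0 by edgeR; 0.0806% and 11.8% of all families were called), and 15 fell in QKO (99.8% of families). Without TKO replicate 1 of the EpiLCs 9 were called lower in TKO, and without WT replicate 2, 1.

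**Figure D2:**
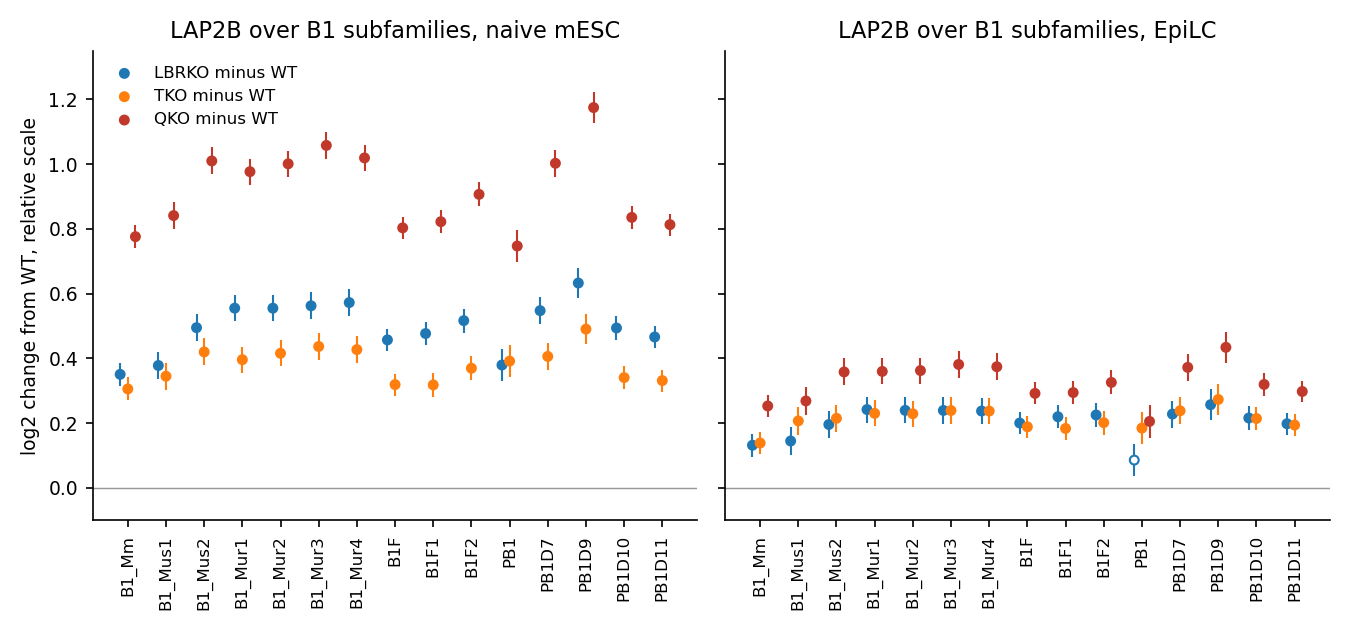
Log2 change of LAP2B signal from WT on the relative scale for the 15 B1 subfamilies in naive mESCs (left) and EpiLCs (right), with the standard error of the limma fit as bars, filled where the adjusted p is under 0.05 and open otherwise. All changes lie above 0 on this scale, with PB1D9 highest in each group, whereas on the spike-in scale the 15 subfamilies fell in naive TKO and QKO and in QKO EpiLCs.

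The effects were smaller in EpiLCs than in naive mESCs for 15 subfamilies in LBRKO, 8 for TKO and 15 for QKO (limma interaction on the relative scale; 12.3%, 16.1% and 29.3% of all families were called lower). For B1_Mm the differences between stages were -0.22 (SE 0.050; adjusted p = 0.00425), -0.17 (0.0284) and -0.52 (2.45e-07, limma). That in LBRKO did not pass with medians over copies (-0.11; adjusted p = 0.502) or with libraries divided by their median copy (-0.17; 0.162, limma). That in TKO did not pass with medians over copies (-0.11; adjusted p = 0.651), the median copy (-0.05; 0.695) or the mean copy (-0.10; 0.0591, limma). The count in TKO ranged from 0 to 13 when single libraries were left out: 13 without naive WT replicate 3, 12 without EpiLC WT replicate 1, 1 without naive TKO replicate 1 or 3, EpiLC WT replicate 2 or EpiLC TKO replicate 2, and 0 without naive WT replicate 2, EpiLC WT replicate 3 or EpiLC TKO replicate 3. With medians over copies the counts in LBRKO and TKO were 2 and 0, and with libraries divided by their median copy 6 and 0. Dividing by the mean copy left 1 in TKO. On the spike-in scale 0 of the 15 differed between stages in LBRKO, TKO or QKO, beside 0.0806%, 0.242% and 57.9% of all families, those of QKO higher (0 at an unadjusted p under 0.05, and 0 by edgeR; without naive TKO replicate 2 limma called 9 and without EpiLC TKO replicate 3, 5).

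Young and old subfamilies were compared within each library. The log2 ratio of the mean young copy to the mean old copy was 0.07, 0.10 and 0.07 for naive WT, -0.03, -0.05 and -0.03 for LBRKO, 0.07, 0.004 and 0.07 for TKO and 0.03, 0.02 and 0.04 for QKO. LBRKO and QKO libraries lay below all WT libraries, and TKO overlapped with WT. The ratio differed from WT by -0.12, -0.03 and -0.05, and among the 4 genotypes (exact permutation test, p = 0.00344). With medians over copies the differences were -0.24 for LBRKO, -0.06 for TKO and -0.12 for QKO, and the highest QKO value equalled the lowest of WT. In EpiLCs the differences were -0.06, -0.03 and -0.05 (exact permutation test among the 4 genotypes, p = 0.011), and this p was 0.0613 without WT replicate 1 and 0.719 with medians over copies, where the difference for QKO was -0.02. Without copies above 20 times the median copy that for TKO was -0.05. The effect in EpiLCs minus that in naive mESCs was 0.06 for LBRKO (exact permutation test, p = 0.005), -0.003 for TKO (p = 0.87) and -0.001 for QKO (p = 0.965). With medians over copies the value for LBRKO was 0.19 and no longer passed (exact permutation test, p = 0.075). These differences are small beside those of the relative level, which was higher than in WT in young and old subfamilies alike. On the spike-in scale young and old subfamilies fell in naive TKO and QKO.

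B1 copies were less frequent than an even spread over all TE copies gives where LMNB1 signal was high. Of B1 copies, 13.5% were in the quartile of all TE copies with most LMNB1 signal in naive WT cells and 34.7% in the quartile with least. The share in the top quartile was 15.3% for B2, 15.1% for B4, 16.4% for MIR and 43.4% for L1. Among B1 subfamilies it ran from 10.5% for PB1D9 to 17.4% for B1_Mm, and in EpiLCs from 9.7% to 15.6% for the same pair. LMNB1 signal was not divided by the IGG background here, nor by length, so a copy that touches more bins has a higher sum. The relative IGG level in naive WT was 0.29 for L1 and 0.02 for B1. The part of copy length in these shares was not tested.

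B1 copies were then ranked by the LMNB1 signal of WT cells of the same stage, which comes from other libraries than the LAP2B values compared. The lamina contrast is the log2 ratio of the mean LAP2B signal in the quartile of B1 copies with most LMNB1 to that in the quartile with least. It was 1.71, 2.04 and 1.57 for naive WT, 1.39, 1.05 and 1.23 for LBRKO, 1.13, 0.84 and 1.14 for TKO and 0.01, 0.10 and 0.07 for QKO. All mutant libraries lay below all WT libraries, and the QKO libraries lay near 0, although QKO signal was not even over the ranking, as the deciles below show. The difference from WT was -0.55, -0.74 and -1.71, and the contrast differed among the 4 genotypes (exact permutation test, p = 0.000195). IGG gave 0.87, 0.56 and 0.63 over the same quartiles in naive WT, above QKO and below WT LAP2B. LMNB1, whose values defined the quartiles, gave 2.70, 2.22 and 2.38.

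In EpiLCs the contrast was 1.34, 1.13 and 1.205 for WT, 1.16, 1.17 and 1.09 for LBRKO, 0.93, 0.89 and 0.86 for TKO and 0.79, 0.74 and 0.79 for QKO. LBRKO overlapped with WT, whereas TKO and QKO lay below it, by 0.33 and 0.45 on average (exact permutation test among the 4 genotypes, p = 0.000195). IGG gave 0.91, 0.81 and 0.79 in WT EpiLCs, between the lowest QKO and the highest TKO value. In EpiLCs QKO lowered the contrast less than in naive mESCs, by 1.26 (exact permutation of the stage labels, p = 0.005), and the effects of LBRKO and TKO differed between stages by 0.47 (p = 0.105) and 0.41 (p = 0.185). From naive mESCs to EpiLCs the mean contrast fell in WT, LBRKO (1.23 to 1.14) and TKO (1.04 to 0.90) and rose in QKO (0.06 to 0.77). The test cannot reach 0.005 where a mutant and WT shift the same way, so the p-values of LBRKO and TKO are not comparable with that of QKO. In WT the contrast was lower in EpiLCs than in naive mESCs by 0.55 for LAP2B (exact permutation test, p = 0.1, the smallest possible), and with quartiles by LMNB1 over IGG the difference was -0.90. The quartiles were drawn anew at each stage, and the contrast of LMNB1 itself over them was 2.43 in naive mESCs and 1.90 in EpiLCs. Stage differences of the lamina contrast, that of QKO included, thus compare quartiles that are not alike. With quartiles by LMNB1 over IGG the differences from WT were larger, -0.84, -1.05 and -2.42 in naive LBRKO, TKO and QKO and -0.17, -0.64 and -0.87 in EpiLCs.

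**Figure D3:**
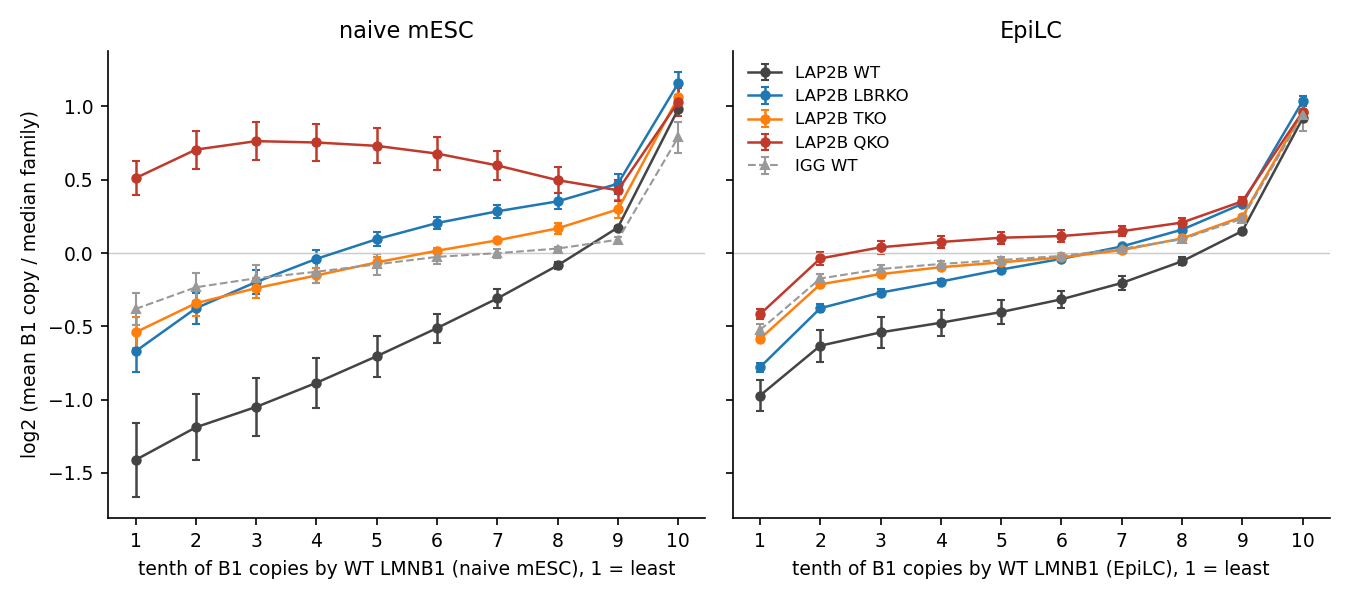
Mean LAP2B signal (circles) and IGG signal (triangles, dashed) over deciles of B1 copies ranked by WT LMNB1 signal of the same stage, as log2 over the median family of each library (relative scale), with the SD of 3 libraries as bars. In naive mESCs (left) WT rises from -1.41 in decile 1 to 0.98 in decile 10, while QKO stays between 0.43 and 1.03. In EpiLCs (right) the groups lie closer together.

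By deciles of this ranking, the change in naive QKO on the relative scale was 1.92 in the decile with least LMNB1, 1.43 in the fifth decile and 0.05 in the decile with most. In TKO it went from 0.87 to 0.08 and in LBRKO from 0.74, through a highest value of 0.85 in the third decile, to 0.18. The same deciles gave, with the spike-in, -0.07 and -1.94 for QKO, -0.28 and -1.07 for TKO, and 0.57 and 0.00 for LBRKO. Signal over the B1 copies with least LMNB1 was thus near its WT value in QKO when the spike-in was used, and the difference was largest in the copies with most LMNB1. In QKO EpiLCs the change went from 0.55 to 0.04 on the relative scale and from -0.61 to -1.12 on the spike-in scale. Over the same deciles the relative level of IGG ran from -0.38 to 0.79 in naive mESCs, and was 0.09 in decile 9. The relative level in naive QKO fell from 0.76 in decile 3 to 0.43 in decile 9 and was 1.03 in decile 10. Values are sums over the bins a copy touches, and the part of bin number in this ranking was not tested. The part of background signal in the mutant values was not tested either.

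B1 copies occur in clusters, and the density of B1 copies was used as a description of where a copy lies that needs no LMNB1 signal. This measure was chosen after seeing the data. For each B1 copy the share of B1 among the 101 copies around it in the table was taken, and B1 copies were divided into quartiles. The dense quartile held shares of 30.7% to 99.0% and the sparse quartile 0.99% to 11.9%. Of the dense quartile 12.4% were among the quartile of B1 copies with most naive LMNB1, against 43.5% of the sparse quartile.

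The log2 ratio of LAP2B signal in the dense to that in the sparse quartile was -0.39, -0.66 and -0.31 in naive WT. It was 0.87, 0.86 and 1.03 for LBRKO, 0.62, 0.57 and 0.58 for TKO and 2.20, 1.72 and 2.04 for QKO. WT libraries were thus the only LAP2B libraries of naive cells with less signal in dense than in sparse stretches. The difference from WT was 1.37, 1.04 and 2.44 (exact permutation test among the 4 genotypes, p = 6.5e-05, the smallest possible). In EpiLCs the ratio was -0.08, 0.14 and 0.11 for WT, 0.58 to 0.60 for LBRKO, 0.60 to 0.70 for TKO and 0.88 to 1.03 for QKO, with differences of 0.54, 0.60 and 0.92 (exact permutation test, p = 6.5e-05). The effect was smaller in EpiLCs by 0.84 for LBRKO (p = 0.005), 0.44 for TKO (p = 0.095) and 1.52 for QKO (p = 0.005; exact permutation of stage labels). The mean ratio rose between stages in both WT and TKO, where this test cannot reach 0.005, and fell in LBRKO and QKO. IGG gave 0.30, 0.48 and 0.36 for naive WT and 0.71, 0.58 and 0.54 in WT EpiLCs, above 0 in all 6 libraries, whereas LMNB1 gave -0.95, -0.45 and -0.58 and then -0.20, -0.59 and -0.34. In EpiLCs the range of IGG held all LBRKO and TKO libraries of LAP2B.

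**Figure D4:**
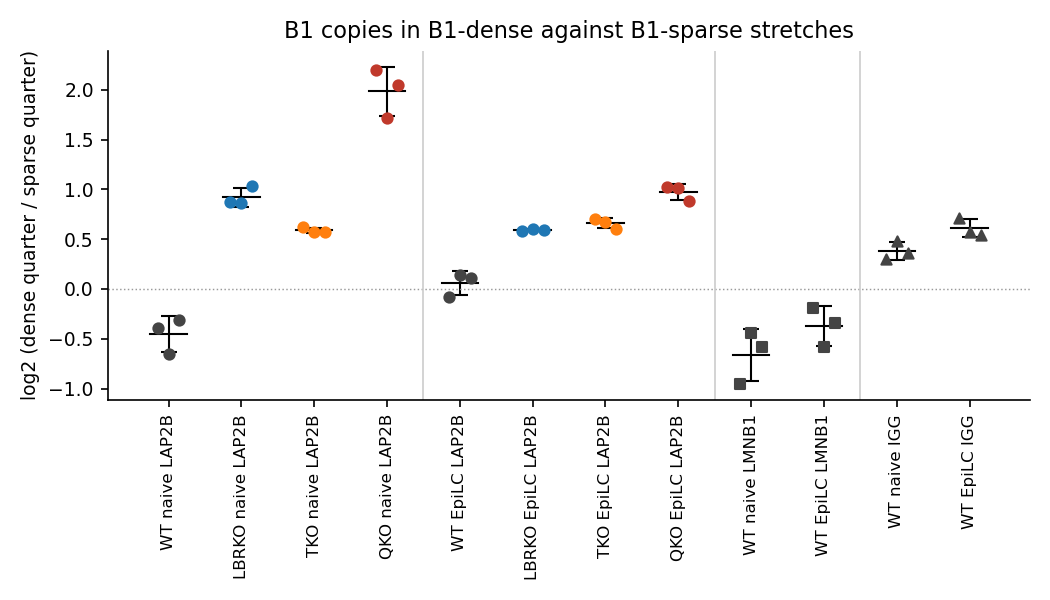
Log2 ratio of mean signal over B1 copies in the quartile with most B1 copies around them to that in the quartile with fewest, for each library (points), with the mean and SD of 3 libraries per group as bars. Naive WT LAP2B lies below 0 (-0.66 to -0.31), like LMNB1, and naive QKO lies between 1.72 and 2.20.

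The surroundings of B1 copies moved with them. When the mean B1 copy was divided by the mean of neighbouring copies of other families, the 11th to 20th copy on each side, the log2 ratio was -0.16, -0.16 and -0.15 for naive WT, -0.11, -0.11 and -0.10 for LBRKO, -0.13, -0.13 and -0.13 for TKO and -0.07, -0.08 and -0.07 for QKO. The groups did not overlap, and the ratio differed from WT by 0.05, 0.03 and 0.08, beside differences of the relative level of 0.53, 0.42 and 1.00. In EpiLCs these differences were 0.03, 0.02 and 0.03. This ratio, too, was added after seeing the data.

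Across the 15 subfamilies, the change in naive QKO went with the median B1 density around a subfamily's copies (Spearman rho 0.84), and gave -0.48 with the share of its copies in the top quartile of LMNB1. The values were 0.90 and -0.69 in naive LBRKO and 0.90 and -0.68 in naive TKO. PB1D9, which changed most, had the highest median share of B1 around its copies (25.7%) and B1_Mm the lowest (18.8%). The subfamilies share libraries and often bins, so these correlations over 15 points are descriptions.

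Across the 19 autosomes the change in naive QKO went with the share of B1 among a chromosome's copies (Pearson r 0.80, Spearman rho 0.83), as it did in LBRKO (0.59 and 0.74) and TKO (0.67 and 0.69). With the relative LMNB1 level of a chromosome's B1 copies in naive WT the values were -0.71 and -0.84 for QKO, -0.18 and -0.45 for LBRKO and -0.61 and -0.73 for TKO. These 19 points share their libraries as well. Chromosome 11, where 20.7% of copies were B1, had the largest change in QKO (relative level -0.52 for WT and 1.02 for QKO, a difference of 1.53). Chromosome 14 (13.5% B1) had the smallest among autosomes (0.43). On the X chromosome (12.0% B1) the difference was 0.49 and on the Y chromosome (8.07% B1) -0.52. In LBRKO the largest difference was on chromosome 6 (0.94, from -0.10 in WT to 0.84), which is 1 of the chromosomes gained in part of the WT cells, and the number of copies of a chromosome and its LAP2B signal per copy cannot be told apart here. Chromosomes come from row order for 99.0% of B1 copies.

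Single B1 copies were tested over all copies of the table. On the relative scale 24.6% of the 514131 B1 copies tested were called higher and 2.99% lower in naive LBRKO, beside 14.3% and 8.2% of all copies. In naive TKO the shares were 13.9% and 0.984% (7.71% and 1.84% of all copies), and in naive QKO 44.1% and 8.29% (25.1% and 18.3%). The lowest 10% of all copies had been left out, and 514131 of the 557926 B1 copies passed this filter. The median log2 change over the B1 copies tested was 0.56, 0.40 and 0.81, and 0.06, 0.08 and -0.05 over all copies. The share called higher in QKO was 39.8% of B2, 34.4% of B4, 27.0% of MIR and 7.83% of L1 copies. With each bin counted once within a family it was 40.7% for B1, 37.8% for B2 and 33.1% for B4, and the differences between families were not tested because copies in 1 bin are not independent.

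By subfamily, copies called higher in naive QKO ran from 39.2% of B1F to 52.3% of PB1D9, and copies called lower from 5.34% of PB1D9 to 11.7% of B1_Mm. The young subfamilies were not alike, with 40.2% of B1_Mm, 43.4% of B1_Mus1 and 46.8% of B1_Mus2 copies called higher. Every subfamily held copies called in each direction. Dividing libraries by their mean copy in place of the median family gave 195572 B1 copies higher and 64406 lower in QKO, against 226930 and 42642, and the split of all copies turned from 25.1% higher and 18.3% lower to 20.8% and 26.3%. The counts in LBRKO (141685) and TKO (76727) became 84665 and 37553 without naive WT replicate 2, and that of LBRKO 91860 without LBRKO replicate 3.

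In EpiLCs few copies passed. On the relative scale 2.66% of B1 copies were called higher and 0.211% lower in LBRKO (1.58% and 0.659% of all copies), 0.0897% and 0.0152% in TKO (0.0526% and 0.0361%) and 3.16% and 0.21% in QKO (1.6% and 0.532%). These counts rested on single libraries: 14786 for LBRKO became 4866 to 14281, 539 for TKO 128 to 2860, and 17308 for QKO 2559 to 19405 when 1 library was left out. They moved by over 1.5 times without any 1 of the WT or mutant libraries, except WT replicate 2 for LBRKO and QKO and WT replicate 3 for TKO, and were lowest without LBRKO replicate 2, TKO replicate 1 and QKO replicate 1. At an unadjusted p under 0.05 limma gave 17.6%, 14.3% and 24.0% of the B1 copies tested, beside 16.6%, 12.3% and 18.7% of all copies.

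With the spike-in 17.1% of B1 copies were called higher and 4.49% lower in naive LBRKO (9.67% and 11.4% of all copies), 1.5% and 26.7% in TKO (0.758% and 41.6%), and 6.36% and 48.1% in QKO (2.85% and 68.6%). Most called B1 copies were thus higher in LBRKO on both scales, and in TKO and QKO higher on the relative and lower on the spike-in scale. In QKO EpiLCs 25.0% were called lower and 0.154% higher (41.1% and 0.0781%). In LBRKO and TKO EpiLCs 1.64% and 0.0599% were called higher and 0.15% and 0.652% lower (0.946% and 0.032% of all copies higher, 0.448% and 1.29% lower). The count in naive LBRKO, 110767, was 59336 without LBRKO replicate 3, and that in naive TKO, 145145, was 72997 without WT replicate 2 and 90384 without TKO replicate 1. In LBRKO EpiLCs the count of 9222 was 5569 without WT replicate 3 and 2529 to 2955 without one of the LBRKO replicates. In TKO EpiLCs 3661 became 157 without WT replicate 1, with more copies higher than lower, 338 without WT replicate 3, 11988 without WT replicate 2 and 1331 to 7699 without a TKO replicate. In QKO EpiLCs 129134 became 65458 without WT replicate 1, 80280 without WT replicate 3, 78694 without QKO replicate 2 and 84910 without QKO replicate 3.

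**Figure D5:**
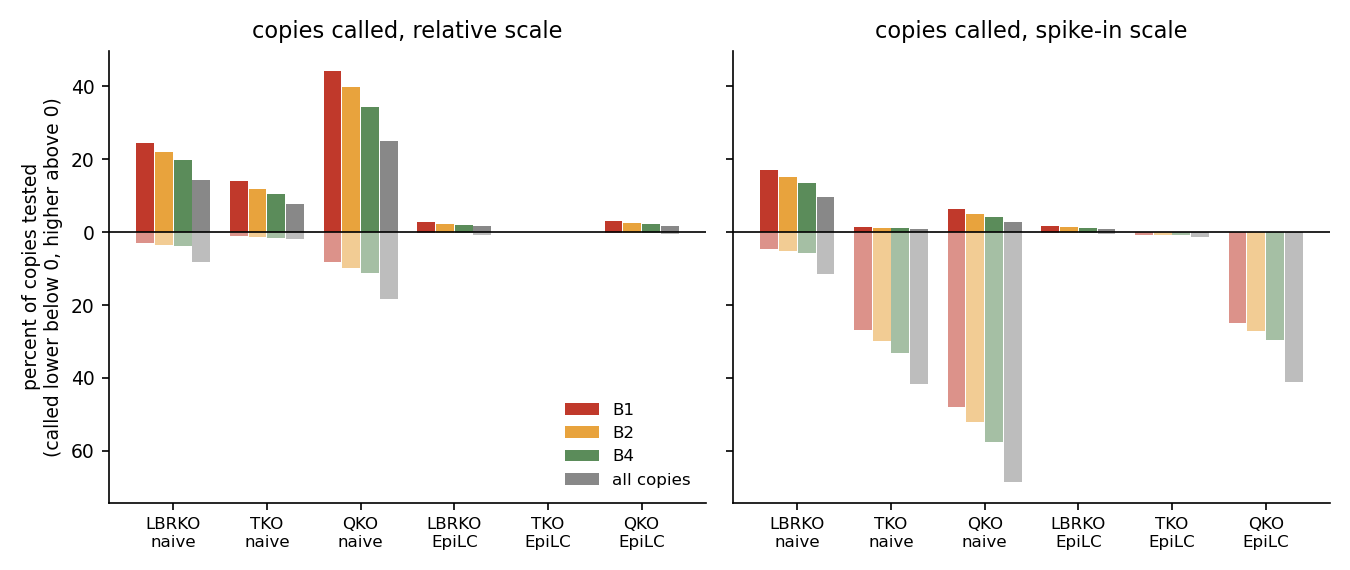
Percent of copies tested that were called higher (above 0) or lower (below 0, pale bars) than WT by limma at an adjusted p under 0.05, for B1, B2, B4 and all copies, on the relative scale (left) and the spike-in scale (right). In naive QKO 44.1% of B1 copies were called higher on the relative scale and 48.1% lower on the spike-in scale, beside 25.1% and 68.6% of all copies.

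In naive QKO 252622 called B1 copies did not overlap between QKO and WT libraries on the relative scale, 215625 of them higher (41.9% of those tested, beside 23.5% of all copies) and 36997 lower (7.2%, beside 15.9%). The copies with the largest changes among these are given as a description, since that contrast chose them. B1_Mus2_dup40756, which was not placed on a chromosome, had 0, 9 and 2 reads for naive WT, 9, 6 and 9 for LBRKO, 136, 61 and 109 for TKO and 630, 497 and 396 for QKO. B1_Mus2_dup40759, 3 copies on in the numbering of that subfamily, had 20, 6 and 2 reads for WT, 10, 4 and 24 for LBRKO, 205, 84 and 174 for TKO and 1049, 909 and 722 for QKO. In EpiLCs, which did not choose them, the first had 16, 28 and 19 reads for WT, 34, 26 and 21 for LBRKO, 111, 152 and 156 for TKO and 323, 425 and 286 for QKO. The second had 20, 26 and 17 for WT, 5, 16 and 29 for LBRKO, 146, 216 and 255 for TKO and 431, 619 and 458 for QKO. At both stages the reads of both copies in TKO, the line QKO was made from, lay above all WT and below all QKO libraries.

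The copies lowest in QKO are described in the same way. B1_Mus2_dup52302, which lies by row order between chr12:114315001-114434000, had 60, 57 and 68 reads for naive WT, 90, 44 and 54 for LBRKO, 7, 3 and 1 for TKO and 2, 0 and 0 for QKO. B1F_dup29431, between chr11:71179001-71914000, had 47, 39 and 39 reads for naive WT, 52, 12 and 40 for LBRKO, 0, 1 and 0 for TKO and none in QKO. In EpiLCs the former had 83, 87 and 54 reads for WT, 58, 58 and 65 for LBRKO, 4, 6 and 6 for TKO and 3, 3 and 4 for QKO, and the latter 14, 19 and 4 for WT, 32, 37 and 18 for LBRKO, 0, 0 and 0 for TKO and 0, 0 and 1 for QKO. Both copies were near 0 for TKO and in QKO, which was made from TKO, at both stages. Whether these copies are present in the genome of the TKO line was not tested.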

How the data were processed

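CUT&RUN libraries of LAP2B, LMNB1 and IGG were analysed from 3 deposited tables, 1 for each antibody, with 1 row for each copy of a transposable element. Read pairs were aligned by the authors to mm39 (GRCm39) with Bowtie2 2.3.5.1 and SAMtools 1.10, per the submitters' processing notes and the methods of the study, and they then removed duplicates, computed coverage in bins with deepTools as RPKM and multiplied it by a factor from yeast spike-in reads (sacCer3). The deposited signal values are these scaled RPKM summed over the bins that a copy touches, with no division by length. The methods name wider bins for repeats, whereas the values match bins of 1 kb. Within a library 99.9997% to 99.9999% of values lay within 0.05 of a whole number of steps of 1 read, and these whole reads were recovered. No per-sample column was left unused (0).

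The members and lists were chosen with earlier results of these data known. B1 copies were those of class SINE and family Alu. Values were used as deposited (spike-in scale) and after dividing each library by its median family (relative scale). A pseudocount of 0.1 of the median family, or of the median copy, was added before log2, and the lowest 10% of copies were left out of the copy test. Families and copies were tested with limma 3.58.1 (R 4.3.3; 1 model of group means over the 24 LAP2B libraries, eBayes with trend) and Benjamini-Hochberg adjustment over all 1241 families or all 3414046 copies tested, at a threshold of 0.05. Values per library were tested by two-sided exact permutation: 15400 partitions for the F statistic over 4 genotypes, 20 for a pair of groups (smallest p 0.1) and 400 for a difference between stages (smallest p 0.005). The last shuffled the stage labels of the mutant and of WT separately, so its null is no stage shift in either. It cannot reach 0.005 where both shift the same way. The scripts were tested on simulated data. All 15 subfamilies may be named, those with the largest and smallest change of a comparison in full, with B1_Mm and PB1. Single copies named are the 2 with the largest rise and the 2 with the largest fall in naive QKO on the relative scale among those called whose groups do not overlap. The 2 H3K9me3 samples were not analysed here.

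Copies in 1 bin share their reads, so copies are not independent. A copy was given a bin only where its reads in every library equalled those of a gene within 1 bin, which placed 1770 B1 copies (0.317%); 99.0% received a chromosome from their row's place between such copies. Alternatives were edgeR 4.0.16 on recovered reads with TMM or DESeq2 1.42.0 size factors, other pseudocounts and filters, medians in place of means, other scalings, the replicate block and leaving out each library. Some of the selected B1 copy sequences are not reported here.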

Additional observations from a re-analysis of the deposited data

Results flagged for a closer look

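Each value here is the effect of a mutant in EpiLCs minus its effect in naive mESCs on LAP2B signal (log2), and each was singled out because a test of that difference passed. By exact permutation of stage labels, the relative B1 level differed by -0.31 in LBRKO (p = 0.005), -0.18 in TKO (p = 0.015) and -0.64 in QKO (p = 0.005). The value for TKO did not pass with libraries divided by their median copy (p = 0.425), their mean copy (p = 0.095) or neighbouring copies (p = 0.14), nor without the B1 copies of chromosomes 6, 8, X and Y (p = 0.05), and that for LBRKO did not pass against neighbouring copies (p = 0.055; exact permutation). The ratio of B1 to B4 differed by -0.0714, -0.0895 and -0.205 (p = 0.005 for each by exact permutation), and the ratio of young to old subfamilies by 0.0596 in LBRKO (exact p = 0.005), which did not pass with medians over copies (exact p = 0.075). The lamina contrast, over quartiles drawn anew at each stage, differed by 1.26 in QKO (exact permutation, p = 0.005, the smallest possible). The dense to sparse contrast, a measure chosen after seeing the data, differed by -0.84 in LBRKO and -1.52 in QKO (exact permutation, p = 0.005 for each). The permutation test cannot reach 0.005 where a mutant and WT shift the same way between stages. Of the 15 subfamilies, 15, 8 and 15 differed between stages in LBRKO, TKO and QKO by the limma interaction on the relative scale, all in the direction of a smaller effect in EpiLCs (12.3%, 16.1% and 29.3% of all families were called so). The counts for LBRKO and TKO were 2 and 0 with medians over copies and 6 and 0 with libraries divided by their median copy, and that for TKO was 1 with the mean copy. On the spike-in scale the differences of the B1 level between stages were -0.16, 0.49 and 0.18 and did not pass (exact permutation, p = 0.545, 0.265 and 0.51). Groups of 3 libraries are too small for a test of a single library that stands apart.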

How the results depend on the processing

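The values rest on whole bins, on 3 libraries per group and on a choice of scale. The 6 pairwise differences of the relative level stayed positive under each scaling and each left-out library tried. Taking the median over copies gave differences of the relative level from WT of 0.597 in naive LBRKO, 0.475 in naive TKO and 0.270 in LBRKO EpiLCs, and subfamily counts of 0 in TKO EpiLCs, 2 between stages in WT, 2 and 0 for the stage difference of LBRKO and TKO, and 7 on the spike-in scale between QKO and TKO naive. It gave p = 0.719 (exact permutation) for young to old in EpiLCs, a stage difference of 0.189 in LBRKO that no longer passed (exact permutation, p = 0.075), differences of the lamina contrast from WT of -2.01, -0.472 and -0.638 in naive QKO, TKO EpiLCs and QKO EpiLCs, a dense to sparse stage difference of -0.572 in TKO that now passed, and differences between stages of 0.0 for B1 to B4 in IGG and 0.0292 for young to old in LMNB1. Dividing by the median copy gave counts of 0 between stages in WT and 6 and 0 for the stage difference of LBRKO and TKO, 11285 copies in QKO EpiLCs, and differences of the relative level of 0.271 in naive TKO, 0.299 in QKO EpiLCs, 0.0208 between stages in WT and -0.0477 for the stage difference of TKO, which no longer passed (exact permutation, p = 0.425). Dividing by the mean copy gave a count of 1 for the stage difference of TKO, and differences of the relative level from WT of 0.471, 0.295 and 0.727 in naive LBRKO, TKO and QKO, 0.190 and 0.291 in TKO and QKO EpiLCs and -0.106 for the stage difference of TKO, which no longer passed (exact permutation, p = 0.095). Without the B1 copies of chromosomes 6, 8, X and Y the stage difference of the TKO level was -0.173 and no longer passed. With families of at least 100 copies the stage difference of TKO called 13. A pseudocount of 0.01, like edgeR with spike-in size factors, called 1 between QKO and TKO naive on the spike-in scale. A pseudocount of 0.5 of the median copy called 906 and 27241 copies in TKO and QKO EpiLCs, and 20027 and 9911 on the spike-in scale in LBRKO and TKO EpiLCs. Against neighbouring copies the level differed by 0.0510, 0.0315 and 0.0841 in naive LBRKO, TKO and QKO, by 0.0292, 0.0194 and 0.0262 in EpiLCs, by 0.00101 between stages in WT, by -0.0218 and -0.0121 for the stage difference of LBRKO and TKO, neither of which passed, and by -0.00894 between stages for LMNB1. With classes by LMNB1 over IGG the lamina contrast differed by -0.836, -1.05 and -2.42 in naive cells, by -0.172, -0.643 and -0.873 in EpiLCs, by -0.902 between stages in WT and by -0.309 between stages for IGG. The cause of these changes was not tested. On the spike-in scale, the planned TMM and DESeq2 size factors were not run, and spike-in size factors, chosen after seeing the data, were used in the test on recovered reads.

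Leaving out 1 library in turn gave subfamily counts of 1 to 14 between stages in WT and 0 to 13 for the stage difference of TKO. On the spike-in scale they were 0 to 1 for QKO against TKO naive, 0 to 9 for TKO EpiLCs, 0 to 15 for QKO against TKO EpiLCs and 0 to 9 for the stage difference of TKO. Copies called ranged from 84665 to 122575 in naive LBRKO, 37553 to 70116 in naive TKO, 4866 to 14281, 128 to 2860 and 2559 to 19405 in LBRKO, TKO and QKO EpiLCs, and on the spike-in scale from 59336 to 89767, 72997 to 156982, 2529 to 7941, 157 to 11988 and 65458 to 153001. The p for B1 to B2 in EpiLCs ranged from 0.0418 to 0.233 and that for young to old from 0.00792 to 0.0613 (exact permutation).

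Replicate numbers did not pair the samples: the correlation of deviations between libraries of the same number and different groups had a median of -0.0277 over 84 pairs, and 8 of 24 libraries correlated best with their own number. With the replicate block the level differed among genotypes with p = 0.00174 in naive cells and 0.00347 in EpiLCs (permutation within blocks), and 1 subfamily was called between stages for LMNB1 on the spike-in scale.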
